A study of Homo sapiens with 12 samples.

Results

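The genes of cholesterol synthesis, sterol transport and their control by sterol regulatory element-binding proteins (SREBPs) were followed in MDA-MB-231 cells, an established line of basal-like, mesenchymal breast cancer, after a mimic of miR-145-5p was added, with and without silencing of AGO2. The set held 31 genes, named for their place in the pathway. The rule uses no measured value, but the genes were named with earlier results of these data known. All 31 had probes on the array, 337 probes in all, of which 326 were kept, and all 31 were among the 18252 genes tested of the 20708 that could be named. The 12 arrays fell into 4 groups of 3 biological replicates. Cells of cntrl carried control oligonucleotides for both the mimic and the siRNA, mimic145 cells carried the miR-145-5p precursor at 5 nM, sirnaAGO2 cells a Dicer-substrate siRNA against AGO2 at 500 pM for 72 h, and sirnaAGO2+mimic145 cells both. All groups were thus transfected, and all came from 1 cell line grown in serum. As RNA was taken in bulk, fewer cells in a given state and less RNA per cell cannot be told apart.

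Cells make cholesterol from acetyl-CoA by way of mevalonate, the isoprenoid diphosphates, squalene and lanosterol. When sterols in the endoplasmic reticulum are low, SCAP escorts the SREBPs (SREBF1 and SREBF2) to the Golgi, where they are cut to release transcription factors that switch on the genes of synthesis and uptake. INSIG1 and INSIG2 hold SCAP back when sterols are plentiful, and oxysterol-activated liver X receptors (NR1H3 and NR1H2) drive an opposite programme that includes sterol efflux. MicroRNAs such as miR-145-5p act within Argonaute proteins, of which AGO2 is the one able to cut its target.

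The sequence of the mature microRNA that the mimic stands for is shown because it is the agent tested. It comes from RefSeq (chr5:149430661-149430683, plus strand, GRCh38.p14), with the seed (bases 2 to 8) in capitals.
hsa-miR-145-5p: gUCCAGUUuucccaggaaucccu

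Promoter windows from RefSeq, 250 bases before to 50 bases after a transcript start, were held for 28 of the 31 genes (40 windows), and ACAT2, FDFT1 and SQLE were not matched. Both strands were searched for the sterol response element in a wide form (TCACNCCAC) and as a core (CACCCCAC), for the box bound by NF-Y, a usual partner of SREBP (CCAAT), and for the E-box (CACGTG). A gene counted if any of its windows held the match, and the shares were not matched for windows per gene or kind of gene. The CCAAT box was found for 20 of 28 genes (71.4%), beside 39.7% of the 27305 genes of the table. At least 2 copies within 1 window were held by 13 genes (46.4%, beside 12.9% of all), and at least 3 by 7 genes (25.0%, beside 3.92%). The wide sterol element was found for 1 gene (3.57%, beside 1.39%), SREBF2 itself, where the core overlaps it. The core was in the same window only (3.57%, beside 3.39%), and CACGTG was found for 4 genes (14.3%, beside 8.77%). These are matches of letters in a short window and not sites of binding. The windows below are those of SREBF2, which held the sterol element, of MSMO1 and NSDHL, which held 4 and 5 CCAAT boxes and whose RNA was higher with the mimic in both arms, and of CYP51A1 and INSIG2, which rose and fell furthest of the set in mimic145 cells. They are written along the strand of the gene (GRCh38.p14) with matches in capitals. A pair of CCAAT matches in NSDHL, on opposite strands, overlap. The windows of CYP51A1 and INSIG2 held no match, which says only that these letters are not in them, and INSIG2 had a second window, not shown, without a match as well. Whether the boxes go with the change in RNA was not tested. EBP held 3 boxes, and its change with the mimic in unsilenced cells was -0.07. NPC1, higher with the mimic in both arms, had no match.
SREBF2 (chr22:41832855-41833154, plus strand): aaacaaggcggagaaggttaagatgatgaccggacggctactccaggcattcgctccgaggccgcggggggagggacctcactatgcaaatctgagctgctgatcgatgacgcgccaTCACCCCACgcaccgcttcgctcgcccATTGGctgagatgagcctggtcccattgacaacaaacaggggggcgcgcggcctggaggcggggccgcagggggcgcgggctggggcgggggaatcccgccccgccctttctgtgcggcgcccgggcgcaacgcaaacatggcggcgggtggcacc
MSMO1 (chr4:165327419-165327718, plus strand): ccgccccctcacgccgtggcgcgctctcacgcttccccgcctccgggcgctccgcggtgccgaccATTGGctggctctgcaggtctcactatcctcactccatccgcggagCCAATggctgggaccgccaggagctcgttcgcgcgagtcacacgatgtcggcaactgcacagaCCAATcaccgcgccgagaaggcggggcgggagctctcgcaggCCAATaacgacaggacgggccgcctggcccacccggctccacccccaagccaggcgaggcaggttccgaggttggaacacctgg
NSDHL (chrX:152830813-152831112, plus strand): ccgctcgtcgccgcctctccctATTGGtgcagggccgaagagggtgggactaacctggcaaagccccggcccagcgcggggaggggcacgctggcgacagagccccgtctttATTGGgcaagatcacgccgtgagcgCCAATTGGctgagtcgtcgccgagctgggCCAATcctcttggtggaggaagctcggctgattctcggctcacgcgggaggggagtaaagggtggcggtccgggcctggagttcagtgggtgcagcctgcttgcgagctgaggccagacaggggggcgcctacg
CYP51A1 (chr7:92134428-92134727, minus strand): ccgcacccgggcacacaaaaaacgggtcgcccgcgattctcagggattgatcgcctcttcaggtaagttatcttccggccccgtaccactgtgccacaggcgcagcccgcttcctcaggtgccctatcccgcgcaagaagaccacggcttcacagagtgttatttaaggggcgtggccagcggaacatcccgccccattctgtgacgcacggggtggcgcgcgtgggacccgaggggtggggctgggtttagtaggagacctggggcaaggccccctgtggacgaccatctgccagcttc
INSIG2 (chr2:118088221-118088520, plus strand): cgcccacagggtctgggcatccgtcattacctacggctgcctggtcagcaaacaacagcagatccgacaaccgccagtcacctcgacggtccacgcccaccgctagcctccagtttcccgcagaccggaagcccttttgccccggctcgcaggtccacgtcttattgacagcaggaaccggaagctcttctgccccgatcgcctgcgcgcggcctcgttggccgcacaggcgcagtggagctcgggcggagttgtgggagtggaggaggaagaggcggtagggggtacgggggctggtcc

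Values below are log2 intensities of a gene, the mean over its kept probes after quantile normalization, and they can be compared between arrays but not between genes. Differences are log2 changes with the standard error (SE) of the fit. A gene passed where limma's p, adjusted over all genes tested, was under 0.05. On single arrays, 60.5% to 77.3% of spots stood well above background. No spot was saturated, and arrays of 1 group correlated at 0.9635 to 0.9931. Of the marker genes of the line, VIM, CD44, CAV1 and AXL had 99.1% to 100% of their probe calls well above background, as against 4.63% for PGR and 35.7% for ESR1. GATA3 (100%) and EPCAM (85.0%), listed as low in this line, were not low, and CDH1 was at 38.0%. Leukocyte and endothelial markers lay between 13.6% (PTPRC) and 47.6% (CD3E). Each slide held a cntrl array beside mimic145 or a sirnaAGO2 array beside sirnaAGO2+mimic145, with the mimic always in the second position, so that position and mimic cannot be told apart.

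The silenced gene itself was lower in every silenced array. AGO2 was at 9.21, 9.14 and 9.01 on the cntrl arrays, at 9.44, 9.36 and 9.39 with the mimic, at 8.35, 8.44 and 8.42 with the siRNA, and at 8.27, 8.35 and 8.41 with both. No silenced array overlapped an unsilenced one, and the mimic145 arrays lay above all cntrl arrays. The siRNA lowered AGO2 by a log2 change of -0.71 ± 0.076 (adjusted p = 0.00494) without the mimic and of -1.06 ± 0.076 (adjusted p = 0.00079) with it, and all 19 probes were lower in both comparisons. The mimic raised AGO2 by 0.28 ± 0.076 (adjusted p = 0.0299) in unsilenced cells, a call that was lost in 13 of 26 alternatives (adjusted p up to 0.207), while each silencing call was lost in 5 of 25.

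The first question was what the mimic did to the pathway in cells with AGO2. Of the 31 genes 19 passed (61.3%), beside 22.5% of all genes, and 15 of them rose, beside 11.6% of all genes higher, while 4 fell, beside 11.0% lower. The genes that rose were enzymes from the first to the last step of synthesis together with the sterol carriers STARD4 and NPC1, and those that fell were INSIG2, LBR, NPC2 and NR1H3. The median change of the 31 genes was 0.24, beside 0.01 over all genes, and 22 of the 31 estimates were above 0. Within replicates 1, 2 and 3 the median of the 31 was 0.35, 0.21 and 0.28, beside -0.02, 0.00 and 0.08 over all genes. The 15 rises ran from 1.26-fold (NPC1) to 1.64-fold (CYP51A1).

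**Figure D1:**
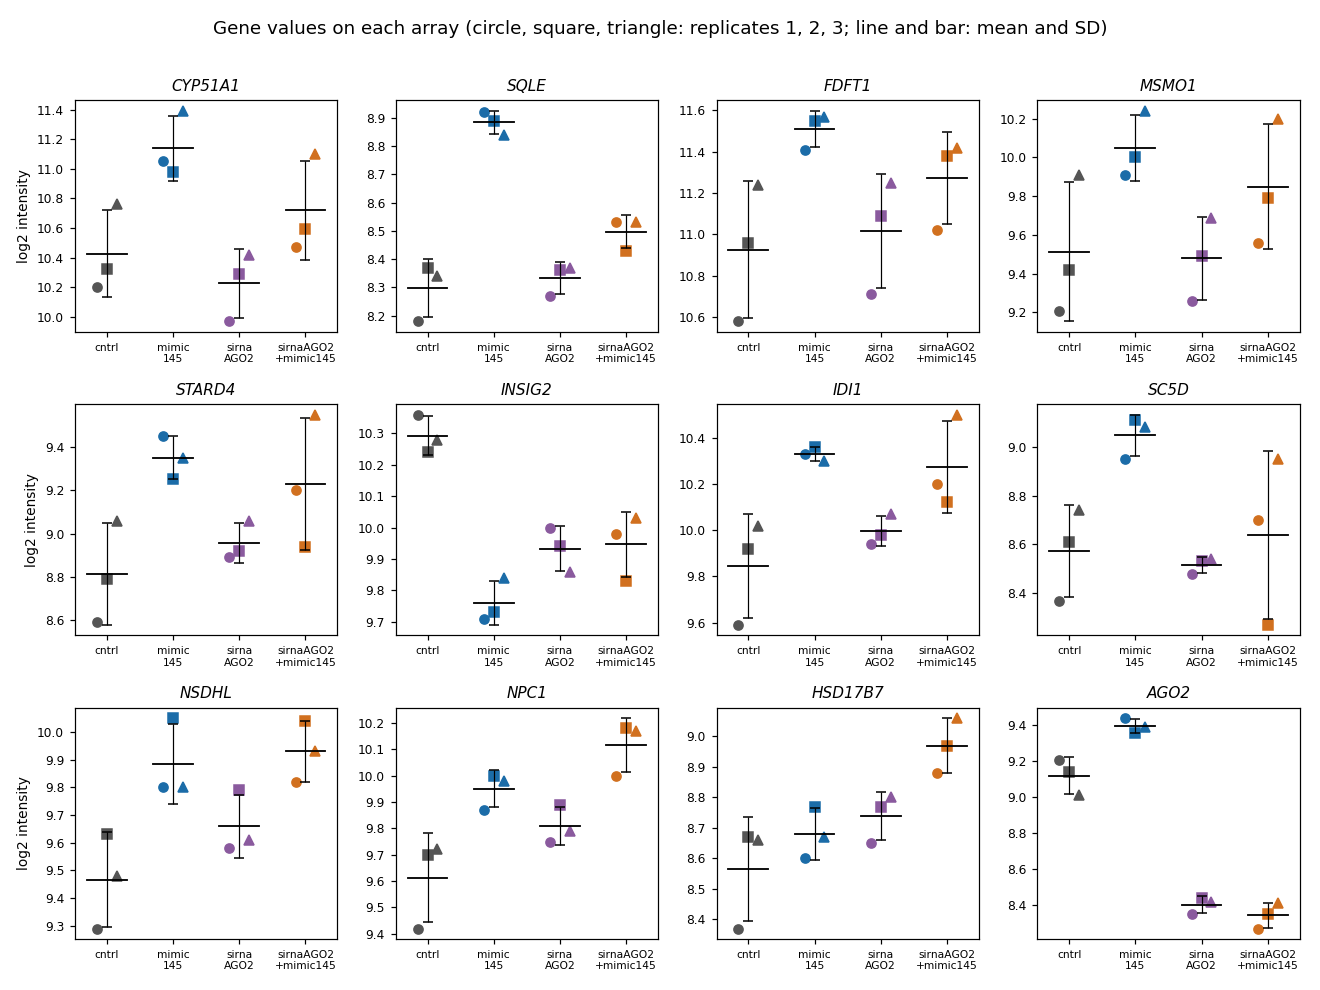
Log2 intensity (vertical axes, each panel with its own range) of 11 genes of the set and of AGO2 on the 12 arrays, by group. Symbols stand for replicates 1, 2 and 3, and lines and bars for the mean and SD of 3 arrays. For SQLE the 3 mimic145 arrays lie between 8.84 and 8.92 and the other 9 arrays between 8.18 and 8.53, and for INSIG2 the cntrl arrays lie above all others.

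Among the 8 early steps, 5 genes passed (62.5%, beside 22.5% of all genes) and all 5 rose. No test compared the roles with each other. IDI1, which isomerizes isopentenyl diphosphate, was at 9.59, 9.92 and 10.02 on the cntrl arrays and at 10.33, 10.36 and 10.30 with the mimic. The groups did not overlap, and the change was 0.48 ± 0.103 (adjusted p = 0.0102). ACAT2, the cytosolic thiolase that joins a pair of acetyl-CoA, rose by 0.44 ± 0.087 (adjusted p = 0.00768), with all 10 probes higher. FDPS, the farnesyl diphosphate synthase, rose by 0.43 ± 0.068 (adjusted p = 0.00259), with all 11 kept probes higher. The decarboxylase MVD (0.37 ± 0.083, adjusted p = 0.0139) and mevalonate kinase, MVK (0.36 ± 0.078, adjusted p = 0.0112), rose less, and the arrays of the compared groups overlapped for both and for FDPS, although each rose in 3 of 3 pairs. Among the other 3, HMGCS1, the synthase of HMG-CoA, was at 0.23 ± 0.103 (adjusted p = 0.145) with all 10 probes higher but 1 of 3 replicate pairs lower, GGPS1, which makes geranylgeranyl diphosphate, at 0.24 ± 0.103 (adjusted p = 0.13), and PMVK, the kinase after MVK, at -0.09 ± 0.089 (adjusted p = 0.494).

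Of the 12 genes of the sterol steps 9 passed (75%, beside 22.5% of all genes), 8 higher and 1 lower. The median change was 0.39 here, 0.36 for the early steps and 0.34 for the transport genes. CYP51A1, the lanosterol demethylase and the gene of the set with the largest change, was at 10.20, 10.32 and 10.76 on the cntrl arrays and at 11.05, 10.98 and 11.39 with the mimic. Every mimic145 array was above every cntrl array, and the change was 0.71 ± 0.091 (1.64-fold, adjusted p = 0.000982), with 10 of 10 probes higher. SQLE, the epoxidase that commits squalene to sterols, was at 8.18, 8.37 and 8.34 without the mimic and at 8.92, 8.89 and 8.84 with it. Again there was no overlap, and the change was 0.59 ± 0.074 (a rise of 50.2%, adjusted p = 0.000916). FDFT1, the squalene synthase, was at 10.58, 10.96 and 11.24 in cntrl and at 11.41, 11.55 and 11.57 in mimic145. Its groups did not overlap, although cntrl replicate 3 came near, and the change was 0.58 ± 0.092 (adjusted p = 0.00245).

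MSMO1, the methylsterol oxidase, was at 9.21, 9.42 and 9.91 on the cntrl arrays and at 9.91, 10.00 and 10.24 with the mimic. The groups met at cntrl replicate 3 and mimic145 replicate 1, and within the replicate pairs the change was 0.70, 0.58 and 0.33, giving 0.54 ± 0.083 (adjusted p = 0.00226). SC5D, the desaturase that makes 7-dehydrocholesterol, was at 8.37, 8.61 and 8.74 without the mimic and at 8.95, 9.11 and 9.08 with it. These did not overlap, and the change was 0.47 ± 0.138 (adjusted p = 0.038). The call passed in 13 of 26 alternatives and was lost in 9 of the fits that left out a single array. NSDHL, the dehydrogenase that acts with MSMO1, was at 9.29, 9.63 and 9.48 in cntrl and at 9.80, 10.05 and 9.80 in mimic145. All mimic145 arrays were higher, by 0.42 ± 0.064 (adjusted p = 0.00209). DHCR7, the last reductase of its branch, rose by 0.37 ± 0.078 (adjusted p = 0.00955) with 9 of 10 probes higher. The 3 sterol genes that did not pass were LSS, the lanosterol synthase (0.06 ± 0.061, with 10 of 25 probes lower), HSD17B7, the ketosteroid reductase (0.11 ± 0.068), and the isomerase EBP (-0.07 ± 0.079, where 4 of 5 kept probes were higher and 1 was at -0.66).

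**Figure D2:**
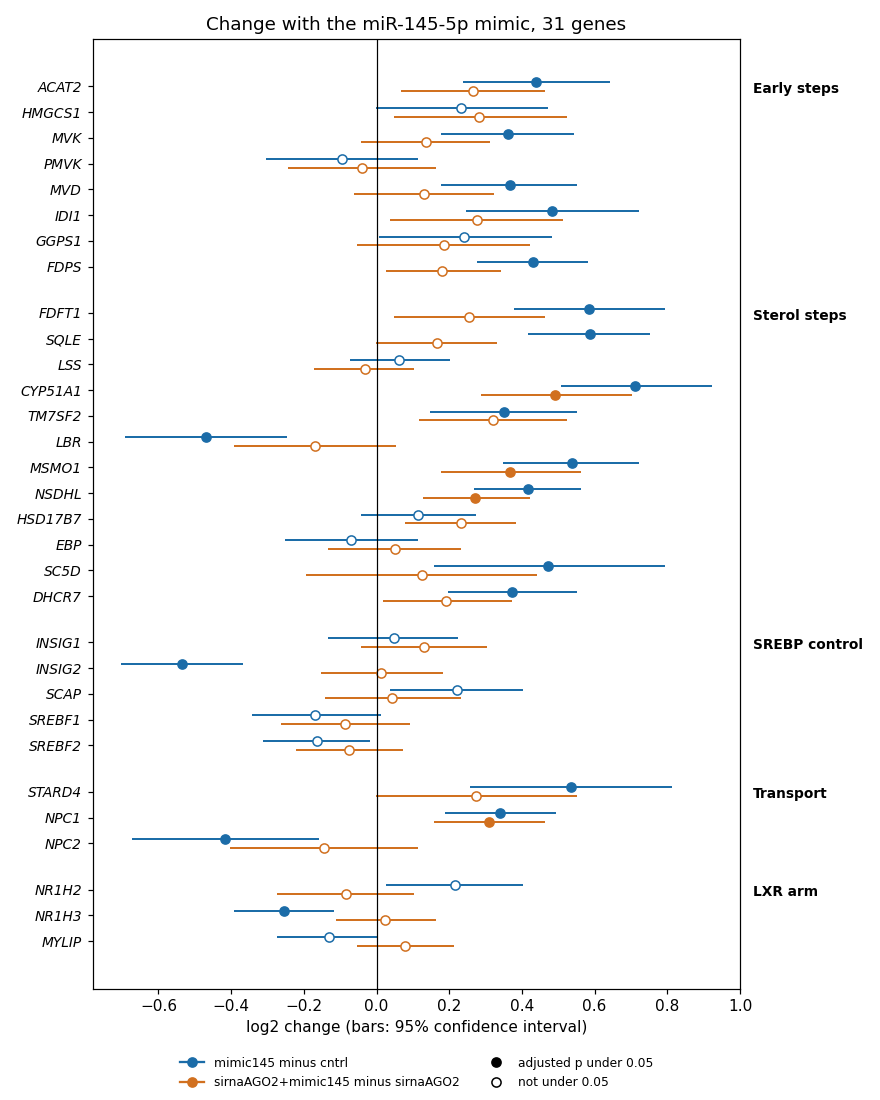
Log2 change with the mimic (horizontal axis, point and 95% confidence interval) of the 31 genes, grouped by role, in cells without the AGO2 siRNA (blue) and with it (orange). Filled points passed at an adjusted p under 0.05, 19 genes in blue and 4 in orange.

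In 2 pairs of related genes, TM7SF2 with LBR and NPC1 with NPC2, both passed and in opposite directions. Differences within a pair were not tested. TM7SF2 and LBR reduce the same bond of the sterol ring after CYP51A1, and LBR is also a receptor for lamin B in the nuclear envelope. TM7SF2 rose by 0.35 ± 0.089 (adjusted p = 0.0216), with 10 of 10 probes higher, while LBR fell, with a change of -0.47 ± 0.097 (adjusted p = 0.00915) and 13 of 13 kept probes lower. In the 3 replicate pairs TM7SF2 changed by 0.27, 0.21 and 0.57 and LBR by -0.37, -0.27 and -0.77. Each direction held in 3 of 3 pairs. Without cntrl replicate 3 the rise of TM7SF2 was 0.23 (adjusted p = 0.0467). Its call was lost without replicate 1, 2 or 3 (adjusted p = 0.119, 0.0715 and 0.101). Over the alternatives, TM7SF2 passed in 18 of 26 and LBR in 22 of 26.

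The SREBP control genes held 1 gene that passed of 5 (20%), near the 22.5% of all genes. INSIG2, the anchor of SCAP that is not itself a usual SREBP target, was at 10.36, 10.24 and 10.28 on the cntrl arrays and at 9.71, 9.73 and 9.84 with the mimic. The groups lay well apart, and the change was -0.54 ± 0.074 (adjusted p = 0.00135), with 5 of 5 probes lower. INSIG1, its paralog and a classical SREBP target, was at 0.05 ± 0.077 (adjusted p = 0.708), with 4 probes lower and 4 higher. SCAP was at 0.22 ± 0.081 (adjusted p = 0.0823), with 22 of 23 probes higher. The factors themselves were at -0.17 ± 0.078 for SREBF1 (adjusted p = 0.161) and -0.16 ± 0.064 for SREBF2 (adjusted p = 0.0973), with 19 of 20 and 16 of 19 probes lower. Their 95% intervals ran from -0.34 to 0.01 and from -0.31 to -0.02.

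All 3 transport genes passed, beside 22.5% of all genes. STARD4, a carrier of sterol between membranes, was at 8.59, 8.79 and 9.06 on the cntrl arrays and at 9.45, 9.25 and 9.35 with the mimic. The groups did not overlap, and the change was 0.54 ± 0.121 (adjusted p = 0.0134). NPC1, the membrane protein through which cholesterol leaves the lysosome, was at 9.42, 9.70 and 9.72 in cntrl and at 9.87, 10.00 and 9.98 in mimic145. All mimic145 arrays were above all cntrl arrays, by 0.34 ± 0.066 (adjusted p = 0.00677), with 24 of 25 probes higher. NPC2, the soluble protein that hands cholesterol to NPC1, went down, with a change of -0.42 ± 0.114 (adjusted p = 0.0294) and 5 of 5 probes lower. Its replicate pairs were at -0.28, -0.24 and -0.73, and without replicate 3 the change was -0.26 (adjusted p = 0.234).

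In the liver X receptor arm, NR1H3 fell, with a change of -0.26 ± 0.06 (adjusted p = 0.0154), although 2 of its 10 kept probes were higher. With no filter on dim probes it was at -0.16 (adjusted p = 0.202). It was the 1 gene of 3 that passed in this arm (33.3%, beside 22.5% of all genes). NR1H2 was at 0.22 ± 0.081 (adjusted p = 0.0899), with 11 of 11 probes higher, and MYLIP, a ubiquitin ligase induced by these receptors, at -0.13 ± 0.059 (adjusted p = 0.147).

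**Figure D3:**
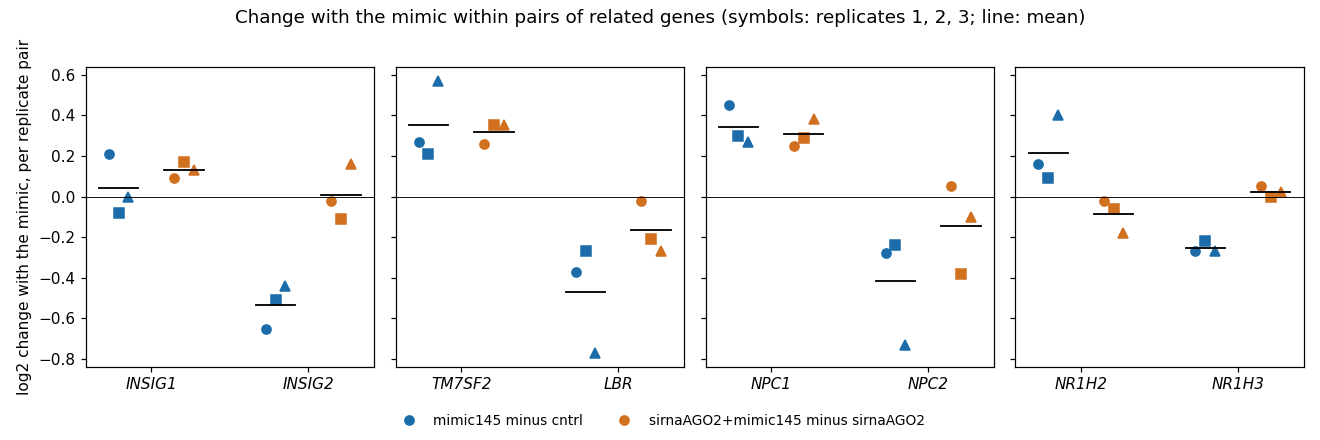
Log2 change with the mimic (vertical axis) in each replicate pair for 4 pairs of related genes, without the AGO2 siRNA (blue) and with it (orange), where symbols stand for replicates 1, 2 and 3 and lines for their mean. In blue, INSIG2, LBR, NPC2 and NR1H3 lie below 0 in all pairs, and TM7SF2, NPC1 and NR1H2 above it.

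The number of calls rested on the replicates and on the pairing. Without replicate 1, 2 of the 31 genes passed, CYP51A1 (0.64) and SQLE (0.51), beside 6.63% of all genes, so that the share of the set was then no higher than that of all genes. The median of the 31 was still 0.27 there, beside 0.03 over all genes. Without replicate 2 it was 12 genes, beside 12.7% of all genes, without replicate 3 it was 11, beside 9.33%, and without the mimic145 array of replicate 1 alone it was 12, beside 14% of all. With no replicate block 7 passed, beside 10.9% of all genes, and 12 of the 19 passed whichever single array was left out. Those that did not were MVD, IDI1, TM7SF2, SC5D, STARD4, NPC2 and NR1H3.

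The wider lists showed where the change went beyond the set. Of 14 fatty acid genes under SREBP-1, 5 passed, all higher, with ACLY, which makes cytosolic acetyl-CoA, at 0.77 ± 0.085 (adjusted p = 0.000554), SLC25A1, the citrate carrier, at 0.34 ± 0.094 (adjusted p = 0.0287) and ACSS2, the acetyl-CoA synthetase, at 0.30 ± 0.075 (adjusted p = 0.0214). Of 10 genes of SREBP cleavage and sterol-driven degradation 2 rose, ERLIN2 (0.87 ± 0.071, adjusted p = 0.000156) and RNF139 (0.50 ± 0.107, adjusted p = 0.0108). Of 22 intracellular sterol transport genes 6 fell and 3 rose, among them NCEH1, a cholesteryl ester hydrolase (-0.96 ± 0.12, adjusted p = 0.000905), OSBPL1A (-0.79 ± 0.074, adjusted p = 0.000275) and OSBPL9 (0.64 ± 0.078, adjusted p = 0.000804). Thus 35.7% of the fatty acid list and 40.9% of the transport list passed, beside 22.5% of all genes. The fatty acid list was mixed in direction, since 8 of its 14 estimates were above 0 and 6 were below 0.

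Of 5 targets of the liver X receptors 1 passed, ABCA1, the cholesterol efflux pump, with a change of -1.03 ± 0.14 (adjusted p = 0.0013). Of 14 genes that use isoprenoids 3 passed, SRD5A3 lower (-0.73 ± 0.092, adjusted p = 0.000916) and DHDDS, a subunit of the enzyme that makes the dolichol chain (0.50 ± 0.073, adjusted p = 0.00175), and the prenyl protease RCE1 (0.39 ± 0.101, adjusted p = 0.0227) higher. At 20.0% and 21.4%, these lists lay near the 22.5% of all genes.

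The next question was what the mimic did where AGO2 was silenced. Of the 31 genes 4 passed (12.9%), beside 7.28% of all genes, and all 4 rose, beside 4.25% of all genes higher and 3.03% lower. They were CYP51A1, MSMO1, NSDHL and NPC1, all of which also rose in unsilenced cells. The median change was 0.14, beside 0.02 over all genes, and 24 of the 31 estimates were above 0. Within replicates 1, 2 and 3 the median was 0.20, 0.12 and 0.16, beside 0.01, 0.03 and 0.04 over all genes.

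CYP51A1 was at 9.97, 10.29 and 10.42 on the sirnaAGO2 arrays and at 10.47, 10.59 and 11.10 with the mimic. The groups did not overlap, and the change was 0.49 ± 0.091 (1.41-fold, adjusted p = 0.0211). MSMO1 was at 9.26, 9.49 and 9.69 with the siRNA alone and at 9.56, 9.79 and 10.20 with both. Here the arrays overlapped, but each pair rose, and the change was 0.37 ± 0.083 (adjusted p = 0.0365). NSDHL was at 9.58, 9.79 and 9.61 and, with the mimic, at 9.82, 10.04 and 9.93. There was no overlap, and the change was 0.27 ± 0.064 (adjusted p = 0.0397). NPC1 was at 9.75, 9.89 and 9.79 on the sirnaAGO2 arrays and at 10.00, 10.18 and 10.17 with both. All arrays with the mimic were higher, by 0.31 ± 0.066 (adjusted p = 0.032), with 25 of 25 probes higher.

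The other genes with large changes in unsilenced cells did not pass here. SQLE was at 8.27, 8.36 and 8.37 on the sirnaAGO2 arrays and at 8.53, 8.43 and 8.53 with the mimic. The groups lay close without overlap, and the change was 0.17 ± 0.074 (adjusted p = 0.176), with 4 of 11 probes lower. The value rested on a few low probes. The single probes ran from -0.84 to 0.62 with a median of 0.41, and SQLE passed at 0.54 with the median over probes and at 0.35 (adjusted p = 0.0107) when probes had to stand well above background on every array. FDFT1 was at 10.71, 11.09 and 11.25 and at 11.02, 11.38 and 11.42, STARD4 at 8.89, 8.92 and 9.06 and at 9.20, 8.94 and 9.55, and IDI1 at 9.94, 9.98 and 10.07 and at 10.20, 10.12 and 10.50. Arrays overlapped for FDFT1 and STARD4 but not for IDI1. SC5D was at 8.48, 8.53 and 8.54 and, with the mimic, at 8.70, 8.27 and 8.95, so that replicate 2 went against the other pairs. Its change was 0.13 ± 0.138 (adjusted p = 0.582), and its single probes ran from -0.50 to 0.47 with a median of 0.27. On all 3 sirnaAGO2+mimic145 arrays, 3 of its kept probes stood well above background, beside 5 in each other group. Over 26 alternatives SC5D passed in 1, STARD4 in 2, and FDFT1 and IDI1 in 0. Of the genes that fell in unsilenced cells, INSIG2 was at 10.00, 9.94 and 9.86 and at 9.98, 9.83 and 10.03. Its groups overlapped, and the change was 0.01 ± 0.074, with a 95% interval of -0.15 to 0.18. LBR was at -0.17 ± 0.097 (adjusted p = 0.284), NPC2 at -0.14 ± 0.114 (adjusted p = 0.432) and NR1H3 at 0.02 ± 0.06 (adjusted p = 0.818).

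The 4 calls were not stable. All were lost by limma without replicate 1, 2 or 3 (6, 10 and 9 genes of the set at an unadjusted p under 0.05), where 2.09%, 0% and 0% of all genes passed, with the slide as a fixed block and without the replicate block, and leaving out single arrays gave between 0 calls (without replicate 1 or 3 of sirnaAGO2 or replicate 2 or 3 of sirnaAGO2+mimic145) and 5 (without cntrl replicate 3).

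On the wider lists in silenced cells, ACLY rose by 0.46 ± 0.085 (adjusted p = 0.0213) as the gene that passed of 14, and ERLIN2, part of a complex of the endoplasmic reticulum that takes part in protein degradation, by 0.61 ± 0.071 (adjusted p = 0.00545) as the gene that passed of 10. NCEH1 (-0.66 ± 0.12, adjusted p = 0.02), OSBPL1A (-0.51 ± 0.074, adjusted p = 0.0117) and OSBPL9 (0.31 ± 0.078, adjusted p = 0.0456) passed of the 22 transport genes, and ABCA1 (-0.56 ± 0.14, adjusted p = 0.048) of the 5 liver X receptor targets. These were 7.14%, 10%, 13.6% and 20% of the lists, beside 7.28% of all genes. None of the 14 isoprenoid genes passed by limma, with 2 at an unadjusted p under 0.05, beside 5253 of all 18252 genes. The methods' t-test after adjustment called 0 genes in all.

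Whether the mimic acted differently with AGO2 silenced was tested as the difference of the mimic's effects. By limma 0 of the 31 genes passed, beside 0.0110% of all genes (2 genes). At an unadjusted p under 0.05 were 7 of the set, beside 3057 of all 18252 genes. The methods' t-test after adjustment called 0 genes in all, so its 0 for the set says nothing about these genes. The median difference was -0.10, beside 0.02 over all genes, and 19 of 31 estimates were below 0. INSIG2 came nearest, at 0.55 ± 0.104 (95% interval 0.31 to 0.78, adjusted p = 0.0818), with 0.63, 0.40 and 0.61 in the replicates and 5 of 5 probes higher. The next were SQLE at -0.42 ± 0.104 (95% interval -0.66 to -0.19, adjusted p = 0.113) and NR1H3 at 0.28 ± 0.084 (95% interval 0.09 to 0.47, adjusted p = 0.168). The SQLE value also rested on a few probes, which ran from -1.46 to -0.03, and was -0.12 (adjusted p = 0.72) with the median over probes. For NPC1 (-0.03, 95% interval -0.24 to 0.18) and TM7SF2 (-0.03, 95% interval -0.32 to 0.25) the values were near 0, and for CYP51A1 the interval ran from -0.51 to 0.07. INSIG2 passed in 2 of 25 alternatives, with normexp background correction and when probes had to stand well above background on every array.

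AGO2 silencing without the mimic changed 1 gene of the set, beside 2.58% of all genes (1.69% lower and 0.888% higher). INSIG2 was lower on every sirnaAGO2 array (10.00, 9.94 and 9.86) than on any cntrl array (10.36, 10.24 and 10.28). The change was -0.36 ± 0.074 (adjusted p = 0.0425), with 5 of 5 probes lower. The median of the 31 genes was 0.04, beside -0.03 over all genes. This comparison and that of mimic145 share the cntrl arrays. Side by side, the change with the mimic and the change with silencing were -0.54 and -0.36 for INSIG2, -0.42 and -0.22 for NPC2, -0.26 and -0.15 for NR1H3 and -0.47 and 0.06 for LBR. Of these, the silencing values of NPC2, NR1H3 and LBR did not pass.

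With the mimic present, silencing changed 3 genes of the set (9.68%), 2 lower and 1 higher, beside 4.31% of all genes, 2.44% lower and 1.86% higher. SQLE, at 8.92, 8.89 and 8.84 in mimic145 and at 8.53, 8.43 and 8.53 in sirnaAGO2+mimic145, was lower on every silenced array. The change was -0.39 ± 0.074 (adjusted p = 0.0261), with 11 of 11 probes lower, between -1.21 and -0.01. With the median over probes it was -0.13 (adjusted p = 0.514) and with probes well above background on every array -0.25 (adjusted p = 0.0322). CYP51A1 went from 11.05, 10.98 and 11.39 to 10.47, 10.59 and 11.10. Its arrays overlapped but each pair fell, and the change was -0.42 ± 0.091 (adjusted p = 0.0394), with 10 of 10 probes lower. HSD17B7 was at 8.60, 8.77 and 8.67 in mimic145 and at 8.88, 8.97 and 9.06 with both, after 8.37, 8.67 and 8.66 in cntrl and 8.65, 8.77 and 8.80 in sirnaAGO2. Every array with both was above every other array, and the change was 0.29 ± 0.068 (adjusted p = 0.0495). RefSeq names 2 pseudogenes of HSD17B7, 3 each of CYP51A1 and IDI1 and 10 of FDPS, so that a part of the signal of these genes could come from near-identical copies, which was not tested. Just short of the threshold were LSS (-0.24 ± 0.061, adjusted p = 0.0587), INSIG1 (0.30 ± 0.077, adjusted p = 0.0657) and LBR (0.36 ± 0.097, adjusted p = 0.074).

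**Figure D4:**
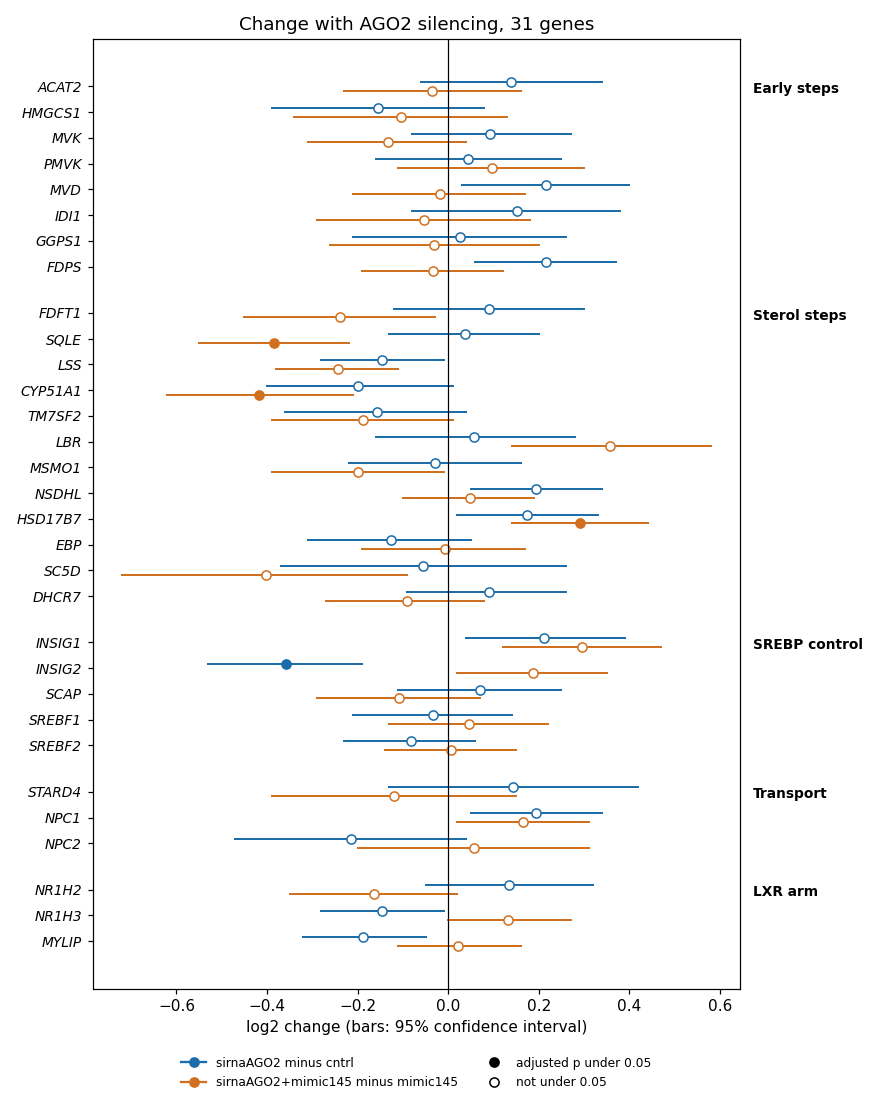
Log2 change with AGO2 silencing (horizontal axis, point and 95% confidence interval) of the 31 genes, grouped by role, without the mimic (blue) and with it (orange). Filled points passed, which were INSIG2 in blue and SQLE, CYP51A1 and HSD17B7 in orange.

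No slide held both a silenced and an unsilenced array, so the slide could enter the silencing comparisons only as a random block. That fit also dropped the replicate block. Under it 0 of the 31 genes passed in either silencing comparison, beside 0.192% and 0.493% of all genes. By limma 1 and 6 genes of the set were then at an unadjusted p under 0.05. With neither block 0 passed as well, with 1 and 5 at an unadjusted p under 0.05. The part of the slide in these losses was thus not isolated. Leaving out any 1 replicate from the main fit also left 0.

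Among the wider lists, silencing alone left the fatty acid, SREBP cleavage and liver X receptor lists with 0 genes that passed by limma. These lists had 3, 4 and 1 genes at an unadjusted p under 0.05, beside 3465 of all 18252 genes. The methods' t-test after adjustment called 0 genes in all. OSBPL8, an oxysterol-binding protein relative, fell (-0.73 ± 0.119, adjusted p = 0.0228) and OSBPL6 rose (0.44 ± 0.088, adjusted p = 0.0408) among the 22 transport genes, and COQ2, which joins the isoprenoid tail of ubiquinone to its ring, rose (0.30 ± 0.063, adjusted p = 0.047) among the 14 isoprenoid genes. These were 9.09% and 7.14% of the lists, beside 2.58% of all genes. With the mimic present, ACSS2 fell (-0.43 ± 0.075, adjusted p = 0.02) as 1 of 14 fatty acid genes, ERLIN2 fell (-0.52 ± 0.071, adjusted p = 0.00886) while its partner ERLIN1 rose (0.51 ± 0.104, adjusted p = 0.0325), and ABCA1 rose (0.61 ± 0.14, adjusted p = 0.0461). The transport list had 2 lower, OSBPL8 (-0.54 ± 0.119, adjusted p = 0.0424) and OSBPL2 (-0.49 ± 0.098, adjusted p = 0.0309), and 1 higher, GRAMD1C (0.38 ± 0.087, adjusted p = 0.0455). The isoprenoid list had 3 lower and 1 higher, among them DHDDS (-0.44 ± 0.073, adjusted p = 0.0167), RABGGTB, a subunit of the enzyme that prenylates RAB proteins (-0.36 ± 0.08, adjusted p = 0.0413), and PDSS2 (-0.30 ± 0.069, adjusted p = 0.0452). Beside 4.31% of all genes, 7.14% of the fatty acid list, 20% each of the SREBP cleavage list and the 5 liver X receptor targets, 13.6% of the transport list and 28.6% of the isoprenoid list passed.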

How the data were processed

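The 12 one-color exon arrays carried RNA of MDA-MB-231 cells, and the labels gave group and replicate. The authors read the slides with Agilent Feature Extraction 10.7.3.1 and deposited, per array, the processed signal, an intensity from which background had been removed and that had no normalization between arrays. They also deposited a matrix of log2 values, quantile normalized after values under 1 were set to 1, used here as an alternative.

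Here the processed signal was quantile normalized over the 12 arrays and its log2 taken, as in the paper's methods. Control spots and outlier spots (304 to 462 an array) were left out. Of 233164 probes, 209671 (89.9%) were named through their transcript accession and RefSeq. A probe was kept where all its spots were well above background on all 3 arrays of a group (142947 probes), and a gene is the mean of its kept probes. The number of arrays limits the precision, and the median SE of a change was 0.10.

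limma 3.58.1 (lmFit, eBayes, two-sided) in R 4.3.3, with the data.table package (version 1.17.8), was fitted to all 12 arrays, on 4 groups with a block for replicate, and p was adjusted by Benjamini-Hochberg over all 18252 genes. The pairing comes from the labels' replicate numbers and the paired test of the methods. Deviations from group means correlated between 0.139 and 0.577 for the 18 pairs of arrays of the same number and between -0.495 and 0.201 for the others. The fit was also run on simulated data with independent noise on each array, which cannot check the replicate block. Plots used Python 3.11.15, matplotlib 3.10.9 and pandas 2.3.3.

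The genes of the set, the wider lists and the tests were chosen with earlier results of these data known. Every gene of the set that passed is named. Values of every array are given for the 8 genes of the set with the largest change in mimic145 and for those that passed elsewhere, and of each wider list at most 3 genes a comparison. The alternatives used 75th percentile scaling, normexp background correction (offset 50), the authors' matrix, looser and stricter probe filters and a median of the probes. Others were fits without the replicate block, with a slide block in its place or on the compared groups alone. Fits that left out 1 replicate or 1 array, the methods' t-test and a minimum change of 0.5 were also used. A gene of the wider lists and a marker gene are not reported here. Seed sites of miR-145-5p and the paper's other assays were not analysed here.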

Additional observations from a re-analysis of the deposited data

Results flagged for a closer look

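For 6 genes of the set, all 3 replicate pairs moved one way in one arm and the opposite way in the other. For each of the 6 the difference itself was tested by limma and did not pass. How many of all genes show such a pattern was not counted, so the 6 are no result about the set. With the mimic, NR1H2 was higher in 3 of 3 pairs of unsilenced cells and was lower in 3 of 3 pairs of silenced cells (difference -0.30, adjusted p = 0.246), and MYLIP went the other way (difference 0.21, adjusted p = 0.261). With silencing, INSIG2 was lower in 3 of 3 pairs without the mimic and higher in 3 of 3 pairs with it (difference 0.55, adjusted p = 0.0818), as was NR1H3 (difference 0.28, adjusted p = 0.168). FDPS (difference -0.25, adjusted p = 0.253) and FDFT1 (difference -0.33, adjusted p = 0.258) were higher in all pairs without the mimic and lower in all pairs with it. The FDPS values in the latter were between -0.05 and -0.02.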

How the results depend on the processing

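Every gene of the set that passed kept its direction under all alternatives run, and what changed was how many passed. For the mimic in unsilenced cells (19 genes), 17 to 21 passed under the other scalings, filters and slide blocks, beside 17.7% to 30.1% of all genes. It was 8 when the fit held the compared groups alone (9.94% of all genes) and 6 when a change over 0.5 was required (8.53%). By the methods' t-test 0 passed after adjustment (0% of all genes) and 12 at p up to 0.05, unadjusted (21.2%). For the mimic in silenced cells (4 genes), 7 passed with 75th percentile scaling (13.1% of all genes), 8 with normexp (12%) and 11 with probes well above background on every array (12.7%). It was 1 with the median over probes (5.81%) and 1 with the slide as a random block (5.61%). With the slide as a fixed block (1.73%), in the compared groups alone (0%), with a change over 0.5 (3.23%) or by the adjusted t-test (0%) it was 0. Unadjusted, the t-test gave 13 (14.2%). For silencing without the mimic (1 gene), 0 passed with the median over probes (1.29% of all genes), a random slide block (0.192%) or the compared groups alone (1.29%). It was also 0 with a change over 0.5 (1.17%) or the adjusted t-test (0%). Unadjusted, the t-test gave 4, beside 17.4% of all genes. For silencing with the mimic (3 genes), 6 passed with normexp (6.48% of all genes), 6 with the authors' table (4.92%) and 6 with the strict filter (8.46%). With the median over probes it was 1 (1.95%). It was 0 with a random slide block (0.493%), the compared groups alone (0%), a change over 0.5 (1.62%) or the adjusted t-test (0%). Unadjusted, the t-test gave 9 (12.1%). For the difference (0 genes), 1 passed with normexp (0.822% of all genes), 1 with the strict filter (1.76%) and 4 by the unadjusted t-test (10.4%). Without the replicate block, that is with the pairing ignored, 7, 0, 0, 0 and 0 genes passed in the 5 comparisons in this order. The shares of all genes were then 10.9%, 0.427%, 0.263%, 0.537% and 0%. Leaving out replicates or arrays gave ranges of 2 to 19, 0 to 5, 0 to 1, 0 to 2 and 0 to 0. Over all genes these fits called 6.63% to 24.3%, 0% to 12.5%, 0% to 3.22%, 0% to 4.41% and 0% to 0.0164%. The slide as a fixed block could not be fitted for silencing, since no slide held both arms. Over all genes, the calls for the mimic in unsilenced cells fell from 4115 to 1995 without the block and to 1814 in the compared groups alone. The causes of these shifts were not tested, and some alternatives used fewer arrays or genes.

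With 3 arrays a group, changes of the set near or under the median SE of 0.10 cannot be resolved, and larger ones could also fail to pass. With the mimic in silenced cells, TM7SF2 was at 0.32 (limma adjusted p = 0.061). A gene that did not pass was thus not shown to be unchanged.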
